A study of Mus musculus with 22 samples.

Results

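The EGR and NR4A activation factors described here are 8 genes of mouse regulatory T cells (Tregs): Egr1, Egr2, Egr3, the EGR corepressor Nab2, Nr4a1, Nr4a2, Nr4a3 and Ier2. They were chosen by name from the 55011 genes of the count table, as early factors induced by the T cell receptor (TCR), with their levels in these groups known, so their levels and folds are given as a description and carry no p value. RNA-seq was run on 22 libraries, each made from 1000 Foxp3-YFP+ cells sorted in 2 rounds from visceral adipose tissue of male C57BL/6 Foxp3.Cre-YFP mice at ZT0 (when lights come on). The cells were labelled Bmal1 KO or Bmal1 WT, where BMAL1 (gene Arntl) is a core transcription factor of the circadian clock, and all groups carried the Foxp3.Cre-YFP strain background, in which Cre and YFP follow the Foxp3 gene. The labels do not describe the Bmal1 alleles, the transferred cells' hosts or donors, or whether replicates came from separate animals, so tests measure only the spread between these libraries.

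Lean diet KO and WT mice (LFD) were 18 weeks old. The groups on high fat diet (HFD) had 14 weeks of lean diet, and then either 4 weeks of high fat diet (KO and WT, 18 weeks old) or 16 weeks (KO and WT, 30 weeks old). Each of these 6 groups held 3 libraries. Transferred KO and WT cells were sorted 9 weeks after adoptive transfer from mice 20 weeks old, with 2 libraries each. The 16-week groups were thus older than the other diet groups, and the length of the diet and age cannot be told apart. Between transferred and diet cells, the transfer, age and total counts per library differed together and cannot be told apart. No contrast between them was fitted, so their levels are set side by side only as a description.

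EGR1, EGR2 and EGR3 are zinc finger transcription factors that bind GC-rich sites, and their genes are switched on within minutes of a TCR signal through the MAP kinase pathway and serum response factor. NAB2 binds EGR proteins and represses their activity, and is itself an EGR target gene. NR4A1, NR4A2 and NR4A3 are orphan nuclear receptors whose levels follow the strength of TCR signalling, and in T cells they are known for roles in Treg maintenance and in restraint of activation, as EGR2 and EGR3 are. IER2 is an immediate early nuclear protein. Tissue dissociation and sorting can induce the same genes, and the sources used here do not say how long handling took.

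RefSeq promoter windows on GRCm38.p6, running from 250 bases before to 50 bases after a start site, were given for 5 of the 8 genes (Egr2, Nab2, Nr4a1, Nr4a2 and Nr4a3), in 9 windows, of which those of Egr2 partly overlap each other. Both strands were searched for the E-box CACGTG bound by BMAL1 and CLOCK, the cAMP response element TGACGTCA, the EGR sites GCGTGGGCG and GCGGGGGCG, the NR4A response element AAAGGTCA, and the serum response factor site (CArG box). No pair of these motifs overlapped within the windows printed here. Egr2 is shown for its start sites with an E-box and with a CArG box, and Nr4a1 for an EGR site, and capitals mark the motif.
Egr2, chr10:67535249-67535548, plus strand, E-box at -27 from the start: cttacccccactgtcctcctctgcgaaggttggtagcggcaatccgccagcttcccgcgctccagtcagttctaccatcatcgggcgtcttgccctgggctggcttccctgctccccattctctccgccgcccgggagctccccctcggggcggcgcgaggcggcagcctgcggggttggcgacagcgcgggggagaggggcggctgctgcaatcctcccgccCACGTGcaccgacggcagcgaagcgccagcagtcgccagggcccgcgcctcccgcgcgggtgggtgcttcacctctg
Egr2, chr10:67537619-67537918, plus strand, CArG box at -72 from the start: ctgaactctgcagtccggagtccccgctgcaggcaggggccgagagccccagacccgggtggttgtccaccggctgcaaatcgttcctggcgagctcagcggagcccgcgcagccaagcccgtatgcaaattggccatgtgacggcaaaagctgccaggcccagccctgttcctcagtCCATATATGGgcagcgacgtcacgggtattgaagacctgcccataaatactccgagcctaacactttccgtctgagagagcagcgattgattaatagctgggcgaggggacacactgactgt
Nr4a1, chr15:101266596-101266895, plus strand, EGR site GCGGGGGCG read on the opposite strand, at -60 from the start: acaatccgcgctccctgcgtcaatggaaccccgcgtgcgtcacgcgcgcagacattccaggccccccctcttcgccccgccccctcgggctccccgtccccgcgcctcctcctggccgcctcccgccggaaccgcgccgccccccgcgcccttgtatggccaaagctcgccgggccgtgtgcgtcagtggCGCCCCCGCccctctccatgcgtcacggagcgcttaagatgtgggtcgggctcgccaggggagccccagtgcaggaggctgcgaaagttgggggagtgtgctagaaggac
An E-box was present in 7.15% of all 32851 windows, a CArG box in 1.63%, and GCGGGGGCG in 2.91%. The cAMP response element was in 1.79% of windows, GCGTGGGCG in 0.612% and the NR4A element in 1.51%, and none of these 3 was found in the windows of the 5 genes. The windows of Nab2, Nr4a2 and Nr4a3 held none of the 6 motifs. A match describes the letters of the window only.

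Total counts were 1955940 to 3467019 for diet libraries and 4814337 to 5990319 after transfer. Levels are given as CPM (counts relative to library size, TMM-scaled over the 22 libraries), and folds come from the edgeR quasi-likelihood fit, with 11698 genes tested across the diets and 11715 after transfer. A gene was called at a Benjamini-Hochberg adjusted p below 0.05 over all genes tested. The KO label was checked on clock genes, because Arntl was at 84.4 to 97.0 CPM in KO group means and 69.5 to 90.4 CPM in WT group means and the deleted part is not given, so its count checks nothing. Nr1d1, a REV-ERB repressor driven by BMAL1, had group means of 1.13 to 2.74 CPM in KO cells and 22.3 to 88.2 CPM in WT cells. Of the 7 clock genes listed, 4 were called in KO against WT cells on lean diet (Nr1d1, Nr1d2, Cry1 and Npas2). Foxp3, the Treg lineage factor, had group means of 487 to 660.4 CPM. Cd8a was at 0 in 21 of the 22 libraries, and Lyz2, Cd79a and Adipoq, markers of myeloid cells, B cells and adipocytes, had group means of at most 3.10 CPM. Other markers were not all as low. The cytotoxic T and NK cell list, which holds Cd8a, summed to 140 to 746 CPM by library. The macrophage, B cell and adipocyte lists reached 17.0, 30.6 and 53.3 CPM, and class II and dendritic cell markers 178 CPM. In bulk cells, fewer cells of a type and less RNA per cell cannot be told apart.

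All 8 genes passed the filter on low counts. Per kilobase of exon, averaged over the 22 libraries, Nr4a1 was the most abundant at 929 CPM per kb, ahead of Ier2 at 773, Egr1 at 181 and Nr4a3 at 105. Nr4a2 stood at 25.8, Egr2 at 14.4, Nab2 at 9.69 and Egr3 at 4.27 CPM per kb. Egr1 ranged most between groups, with its highest group mean 8.44 times its lowest, and Nab2 least, at 1.43 times. Raw counts were 470 to 9937 for Egr1 and 4240 to 32704 for Nr4a1, against 25 to 169 for Egr3 and 41 to 203 for Nab2.

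In GENCODE M21 on GRCm38 the genes lie apart on 7 chromosomes, with Egr2 and Nab2 on the same one. Egr1 is at chr18:34859823-34864984, Egr2 at chr10:67535475-67542188, Egr3 at chr14:70077203-70082614 and Nab2 at chr10:127660918-127668568. Nr4a1 is at chr15:101254269-101274795, Nr4a2 at chr2:57106830-57124003, Nr4a3 at chr4:48045153-48086447 and Ier2 at chr8:84661331-84662852. Counts cover whole genes as the authors summed them.

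Ordered by group mean, few neighbouring groups were free of overlap. For Egr1 the order was transferred KO, lean KO, transferred WT, 4-week KO, 4-week WT, lean WT, 16-week WT and 16-week KO cells, and the libraries did not overlap between transferred WT and 4-week KO cells or between 16-week WT and 16-week KO cells. For Nr4a1 and Ier2 only the step from transferred WT to lean KO cells was free of overlap. For Nr4a3 the steps from transferred WT to 4-week WT cells and from lean KO to 16-week WT cells were. For Egr2, Egr3, Nab2 and Nr4a2 no neighbours were apart.

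**Figure D1:**
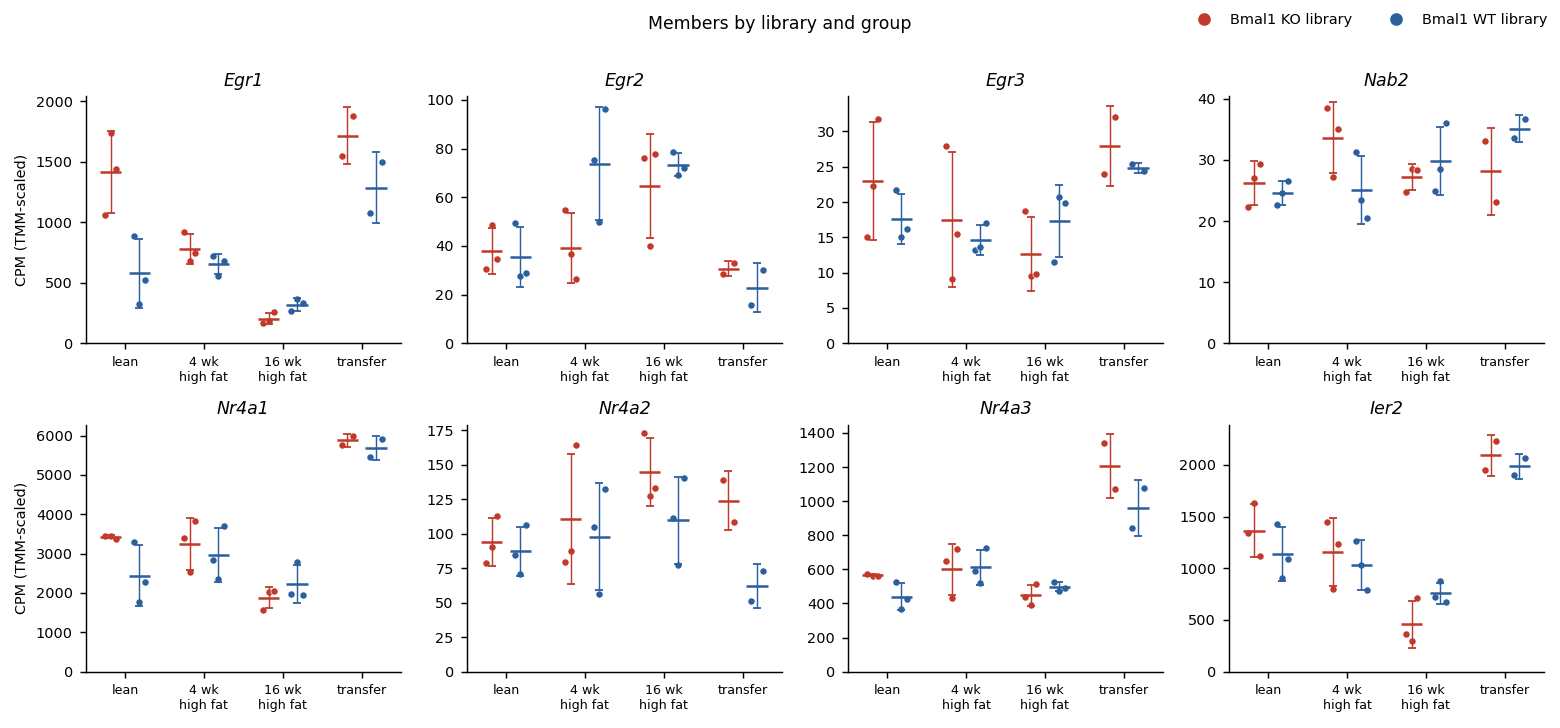
TMM-scaled CPM (vertical axes, from 0, scale differing by gene) of the 8 genes in each library, by diet or transfer group, with KO libraries (red) left of WT libraries (blue); bars are the mean and the SD over 3 libraries, or 2 after transfer. Egr1 in KO cells lies at 1059.9 to 1739.7 CPM on lean diet and at 169 to 255 CPM after 16 weeks of high fat diet, while Egr2 lies higher at 16 weeks in WT cells than in any lean WT library.

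Egr1 was highest in transferred and lean KO cells and lowest in both 16-week groups. On lean diet it had 1059.9, 1739.7 and 1441 CPM in the 3 KO libraries, against 889.6, 321 and 519.6 CPM in the 3 WT libraries. After 4 weeks of high fat diet it had 921, 679 and 744 CPM in KO cells, against 719.7, 559.5 and 681 CPM in WT cells. All lean KO libraries stood above all lean WT libraries, and at 4 weeks the genotypes overlapped. After 16 weeks it had 169, 185 and 255 CPM in KO cells, against 264, 365 and 332 CPM in WT cells. Every 16-week KO library was below every 16-week WT library, the opposite order to the lean diet. After transfer Egr1 had 1547 and 1881 CPM in KO cells and 1077 and 1496 CPM in WT cells, with no overlap. Groups with so few libraries can lie apart by chance, and the share of all genes without overlap was not counted. For each of the genes described here, a lack of overlap is thus a description only.

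The Egr1 difference of KO from WT cells on the log2 scale was 1.30 ± 0.26 (SE; 95% interval 0.75 to 1.84) on lean diet, 0.27 ± 0.26 after 4 weeks and -0.66 ± 0.26 after 16 weeks of high fat diet. Within KO cells the 3 diets did not overlap, with means of 1414 ± 341 CPM on lean diet, 781 ± 125 CPM at 4 weeks and 203 ± 45.7 CPM at 16 weeks (SD, n = 3 each). Egr1 was 6.98-fold lower in 16-week than in lean KO cells (log2 -2.80 ± 0.27) and 3.85-fold lower than in 4-week KO cells (log2 -1.95 ± 0.27). In WT cells the means were 577 ± 289 CPM on lean diet, 653 ± 83.5 CPM at 4 weeks and 320.3 ± 51.7 CPM at 16 weeks. The 16-week and lean WT libraries overlapped (log2 -0.85 ± 0.26), and the 16-week WT libraries lay below all 4-week WT libraries (log2 -1.02 ± 0.26). Lean WT library 1, at 889.6 CPM, stood well above the other lean WT libraries, and without it the lean KO difference was 1.76. Over the fits that each left out 1 library, this difference ran from 1.01 to 1.76.

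Egr2 did not follow Egr1. On lean diet it had 30.4, 48.4 and 34.5 CPM in KO cells and 49.5, 27.6 and 29.0 CPM in WT cells, which overlapped. After 4 weeks of high fat diet it had 54.8, 36.6 and 26.4 CPM in KO cells, against 75.4, 49.7 and 96.4 CPM in WT cells (log2 -0.90 ± 0.30), and the ranges still overlapped. After 16 weeks it had 75.9, 39.9 and 77.6 CPM in KO cells and 78.6, 69.3 and 72.0 CPM in WT cells. In WT cells all 4-week and all 16-week libraries stood above all lean libraries, by log2 1.05 ± 0.31 and 1.05 ± 0.30. In KO cells Egr2 at 16 weeks differed from lean cells by 0.78 ± 0.30 on the log2 scale, and the groups overlapped through 16-week KO library 2, at 39.9 CPM. Transferred cells had the lowest group means of Egr2, 30.7 ± 3.18 CPM in KO cells and 22.9 ± 10.3 CPM in WT cells (SD, n = 2 each).

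Egr3 ran from 9.08 to 32.0 CPM over the 22 libraries, and no pair of groups compared was free of overlap. Its group means were 23.0 ± 8.35 CPM in lean KO cells, 17.5 ± 9.58 CPM in 4-week KO cells and 12.7 ± 5.24 CPM in 16-week KO cells, and 17.6 ± 3.55, 14.7 ± 2.10 and 17.4 ± 5.09 CPM in WT cells in the same order. Egr3 in 16-week against lean KO cells differed by log2 -0.86 ± 0.39 (95% interval -1.67 to -0.05), an interval that spans small and large differences. Nab2, which encodes the EGR corepressor, had group means of 24.6 to 35.1 CPM. In the diet libraries its KO and WT ranges overlapped at every diet, with differences of 0.09 ± 0.22 on lean diet, 0.42 ± 0.21 at 4 weeks and -0.13 ± 0.21 at 16 weeks on the log2 scale. After transfer it had 33.2 and 23.1 CPM in KO cells, below the 33.5 and 36.7 CPM of WT cells (log2 -0.33 ± 0.29). Nab2 is overlapped on the opposite strand by Stat6, with 650 to 1786 counts per library, and by Gm16229 and Nemp1. The kit does not mark strand, so reads in the shared stretch cannot be told apart. None of the other 7 genes overlaps an annotated gene.

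Within each library the balance of Egr1 to Egr2, per kilobase of exon, changed over the diets. The ratio was 26.4, 27.2 and 31.7 in lean KO cells and 13.6, 8.81 and 13.6 in lean WT cells. After 4 weeks it was 12.8, 14.0 and 21.4 in KO cells and 7.23, 8.53 and 5.35 in WT cells, so KO libraries stood above WT libraries at both diets. After 16 weeks it was 1.69, 3.51 and 2.49 in KO cells and 2.54, 3.99 and 3.50 in WT cells, which overlapped and lay below every other diet library. Transferred cells had the highest ratios, 41.2 and 43.3 in KO cells and 52.1 and 37.6 in WT cells. The ratio is taken within a library and does not depend on the library's scaling. It rests on the same counts as the levels above and was not tested. The ratio of Egr1 to Nab2 per kilobase was 35.1 ± 6.06, 15.3 ± 1.24 and 4.87 ± 0.891 in lean, 4-week and 16-week KO cells, and 15.7 ± 8.99, 17.5 ± 3.67 and 7.12 ± 1.18 in WT cells in that order.

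**Figure D2:**
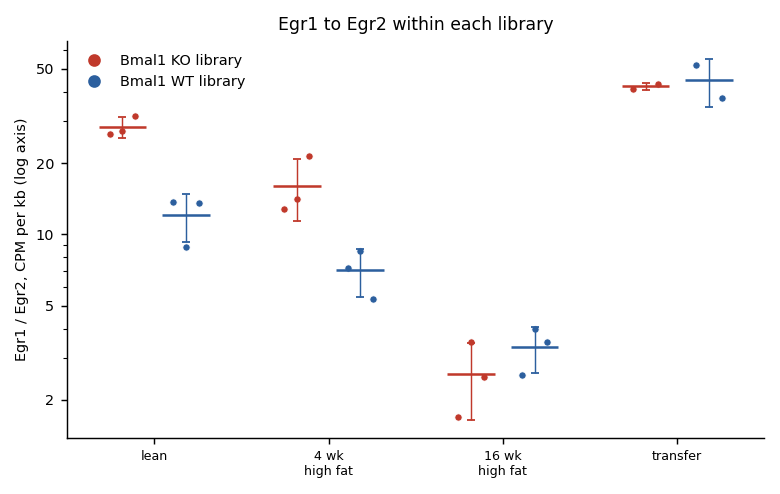
Ratio of Egr1 to Egr2 in CPM per kilobase of exon (vertical log axis) in each library, by diet or transfer group, KO libraries (red) left of WT libraries (blue); bars are the mean and SD. The 16-week libraries lie between 1.69 and 3.99, under all lean and 4-week libraries, and transferred cells lie between 37.6 and 52.1.

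Nr4a1, the most abundant of the genes, encodes NUR77, a widely used readout of TCR signalling. On lean diet it had 3447, 3444 and 3383 CPM in KO cells, against 3286, 1772 and 2268 CPM in WT cells. All lean KO libraries stood above all lean WT libraries (log2 0.49 ± 0.20), with WT library 1 the nearest to them in a group that spread widely. After 4 weeks of high fat diet it had 3404, 2530.3 and 3822 CPM in KO cells and 2848, 2344 and 3702 CPM in WT cells, which overlapped. After 16 weeks it had 1575, 2030.1 and 2042 CPM in KO cells and 1980.1, 2791 and 1938 CPM in WT cells, also overlapping (log2 -0.25 ± 0.20). In KO cells the 16-week libraries were below all lean libraries, 1.83-fold (log2 -0.87 ± 0.20), and below all 4-week libraries (log2 -0.79 ± 0.20). In WT cells the 16-week and lean libraries overlapped, with a difference of -0.13 ± 0.20 (95% interval -0.55 to 0.29). Transferred cells had the highest levels, 5760.4 and 6001 CPM in KO cells and 5461 and 5907 CPM in WT cells.

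Nr4a3 lay close to Nr4a1 in pattern, with group means of 7.24 to 10.3 for the ratio of Nr4a1 to Nr4a3 per kilobase. It had 573, 562 and 560.4 CPM in lean KO cells, above the 527, 369 and 426 CPM of lean WT cells (log2 0.36 ± 0.16). At 4 weeks its means were 601 ± 149 CPM in KO cells and 612 ± 102 CPM in WT cells, and at 16 weeks 449 ± 61.9 CPM in KO cells and 498 ± 26.7 CPM in WT cells, overlapping at both. In KO cells the 16-week libraries were below all lean libraries (log2 -0.34 ± 0.16). Transferred cells had 1341 and 1074 CPM in KO cells and 844 and 1076 CPM in WT cells.

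Nr4a2 went the other way from Nr4a1 and Nr4a3 in the KO diet groups. It had 173, 128 and 133 CPM in 16-week KO cells, above the 78.8, 90.4 and 113 CPM of lean KO cells (log2 0.61 ± 0.29). In WT cells the 16-week libraries had 111, 77.2 and 141 CPM and overlapped with the 84.3, 71.1 and 106 CPM of lean cells (log2 0.33 ± 0.29). After transfer Nr4a2 showed the greatest KO difference of the 8 genes, with 139 and 109 CPM in KO cells against 51.0 and 73.3 CPM in WT cells, 1.97-fold higher (log2 0.98 ± 0.22). In the diet groups the KO and WT ranges of Nr4a2 overlapped at each diet, with log2 differences of 0.11 to 0.40. The ratio of Nr4a1 to Nr4a2 per kilobase was 15.6 ± 4.36 in 16-week KO cells and 43.1 ± 8.02 in lean KO cells (SD, n = 3 each).

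Ier2, like Egr1, had its lowest group mean in 16-week KO cells. It had 1344, 1631 and 1117 CPM in lean KO cells, 1446, 798 and 1234 CPM in 4-week KO cells, and 363, 298 and 717 CPM in 16-week KO cells. Unlike for Egr1, the 4-week and lean KO libraries overlapped (log2 -0.24 ± 0.27). The 16-week KO libraries lay below all lean and all 4-week KO libraries, 2.98-fold below lean cells (log2 -1.57 ± 0.27) and 2.53-fold below 4-week cells (log2 -1.34 ± 0.27). In WT cells it had 1424, 904 and 1092 CPM on lean diet, 1267, 1036 and 790.5 CPM at 4 weeks, and 727, 874 and 669 CPM at 16 weeks. The 16-week WT libraries were below all lean WT libraries by a narrow margin (log2 -0.59 ± 0.27). KO and WT ranges overlapped at every diet, and at 16 weeks KO library 3, at 717 CPM, lay inside the WT range (log2 -0.72 ± 0.27).

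Counts of calls place these folds against all genes, and since the genes were chosen with these contrasts known, nothing is read from them. In KO against WT cells edgeR called 0 of the 8 genes on lean diet, where 0.0427% of all genes were called, 0 after 4 weeks (0.0684% of all genes) and 0 after 16 weeks of high fat diet (0.0427%). Averaged over the 3 diets it called 0 of 8 (0.18% of all genes), and after transfer 0 of 8 (0.171%). At an unadjusted p below 0.05 the counts were 3, 1, 2, 0 and 2 of 8 in that order. Over all genes tested they were 839, 540, 1070 and 865 of 11698 across the diets and 765 of 11715 after transfer. DESeq2 called 1 on lean diet (Egr1), 0 at 4 weeks, 0 at 16 weeks, 0 over the average and 1 after transfer (Nr4a2). Over all genes DESeq2 called 23, 7, 44, 34 and 57 in the same order. On lean diet all 8 log2 differences were positive, beside 49.6% of all genes tested, with a median of 0.31 beside 0.00 for all genes. At 16 weeks 7 of 8 were negative, with a median of -0.22, and Nr4a2 was the exception at 0.40. There 50.3% of all genes were positive, with a median of 0.00. Without lean WT library 1 edgeR called Egr1 on lean diet, among 11 of 12229 genes called in that fit.

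**Figure D3:**
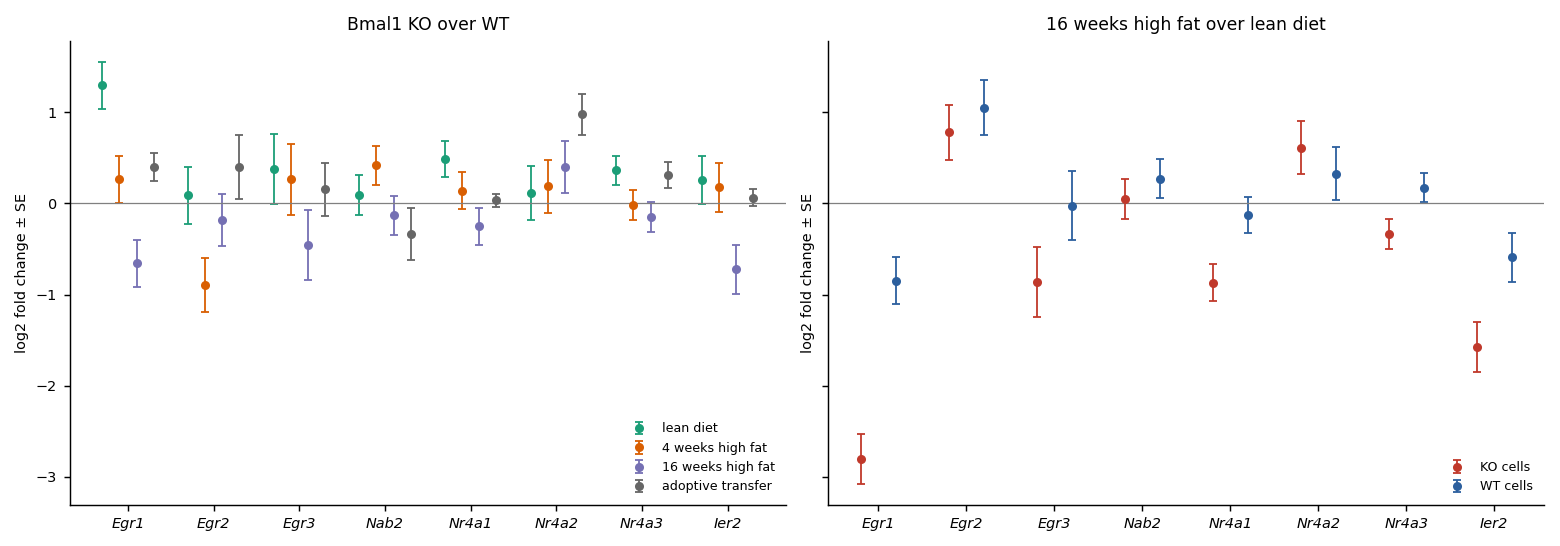
Log2 fold changes with their standard errors (vertical axes) of the 8 genes, left for KO over WT cells in each diet and after transfer, right for 16 weeks of high fat diet over lean diet in KO cells (red) and WT cells (blue). Egr1 shows the widest spread, from 1.30 to -0.66 between the lean and 16-week genotype differences and -2.80 in KO cells at right, and Egr2 is above 0 at right in both genotypes.

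High fat diet was set against lean diet within each genotype, and these contrasts share their lean libraries. After 4 weeks edgeR called 0 of the 8 genes in KO cells and 0 in WT cells, with 0% of all genes called in each. An unadjusted p below 0.05 was found for 1 and 2 of 8, beside 836 and 654 of 11698 genes. DESeq2 called 0 of 8 in both, and 22 and 0 of all genes. After 16 weeks edgeR called 3 of 8 in KO cells (Egr1, Nr4a1 and Ier2, all lower), where 5.95% of all genes were called, 276 higher and 420 lower. There 6 of 8 had an unadjusted p below 0.05, beside 2323 of 11698 genes. In WT cells edgeR called 0 of 8 at 16 weeks, where 0.0855% of all genes were called. There 3 of 8 had an unadjusted p below 0.05, beside 1025 of 11698 genes, and DESeq2 called 0 of 8 and 92 of all genes. DESeq2 called the same 3 genes in KO cells, and 894 of all genes. Without 16-week KO library 1 the Nr4a1 call was lost, in a fit that called 384 of 12041 genes. Between 16 and 4 weeks of high fat diet, edgeR called 0 of 8 and 0% of all genes in WT cells. There 1 of 8 had an unadjusted p below 0.05, beside 884 of 11698 genes, and DESeq2 called 0 of 8 and 27 of all genes. In KO cells edgeR called 2 of 8 (Egr1 and Ier2, both lower), where 1.64% of all genes were called. There 5 of 8 had an unadjusted p below 0.05, beside 1597 of 11698 genes. DESeq2 called 3 of 8 there, adding Nr4a1, and 328 of all genes. Without any 1 of 4-week KO library 1, 4-week KO library 3, 16-week KO library 1 or 16-week KO library 2, only Egr1 was called there, and without 4-week KO library 2 Egr1, Nr4a1, Nr4a3 and Ier2 were. The fit without 4-week KO library 2 called 175 of 12077 genes, and the fits without 1 library called 32 to 175 genes.

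Whether the diet difference itself differed by genotype was fitted as an interaction. At 16 weeks it was -1.95 ± 0.37 for Egr1 on the log2 scale (95% interval -2.72 to -1.19), -0.98 ± 0.38 for Ier2, -0.84 ± 0.54 for Egr3, -0.74 ± 0.28 for Nr4a1 and -0.51 ± 0.23 for Nr4a3. The remaining values were -0.27 ± 0.43 for Egr2, -0.22 ± 0.31 for Nab2 and 0.29 ± 0.41 for Nr4a2. None of the 8 was called by edgeR, with 0% of all genes called. An unadjusted p below 0.05 was found for 4 of 8, beside 993 of 11698 genes. DESeq2 called Egr1, and 27 of all genes. Without lean WT library 1, where the Egr1 value was -2.42, or without 16-week WT library 1, edgeR called Egr1. Those 2 fits called 15 of 12229 and 36 of 12073 genes. Over the fits that each left out 1 library, the Egr1 value ran from -2.42 to -1.67. At 4 weeks the interaction was -1.03 ± 0.36 for Egr1 and -0.99 ± 0.43 for Egr2, and between -0.38 and 0.33 for the other 6 genes. There edgeR called 0 of 8, with 0% of all genes called, and DESeq2 called 0 of 8 and 0 of all genes. An unadjusted p below 0.05 was found for 2 of 8, beside 534 of 11698 genes.

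The other genes of the early response, drawn from a list of 24 that holds none of the 8, fell in 16-week KO cells. Of the 24, 16 fell and 0 rose in 16-week against lean KO cells (edgeR, adjusted p below 0.05), and the median log2 change was -1.09 beside 0.00 for all genes. Beside this and the list counts below, 5.95% of all genes were called for 16 weeks against lean in KO cells. The share was 0.0855% in WT cells, and 1.64% for 16 against 4 weeks in KO cells. The lists too were chosen with earlier results of these data known, so their counts and adjusted p values are a description. Fosb and Fos, subunits of AP-1, fell by 2.45 ± 0.23 (adjusted p = 4.91e-06) and 2.32 ± 0.23 (adjusted p = 6.13e-06) on the log2 scale. Fos averaged 820.3 ± 87.5 CPM in 16-week KO cells and 4090 ± 472 CPM in lean KO cells. Jun, their AP-1 partner, fell by 1.84 ± 0.24 (adjusted p = 8.95e-05), Klf6, a zinc finger factor, by 1.53 ± 0.20 (adjusted p = 0.00012), Dusp1, a MAP kinase phosphatase, by 1.22 ± 0.16 (adjusted p = 0.000134), and Zfp36, which promotes mRNA decay, by 1.84 ± 0.26 (adjusted p = 0.00021). In WT cells 1 of the 24 fell, Fosb, by 1.31 ± 0.22 (adjusted p = 0.0181), with 0 rising and a median of -0.30. That Fosb call was lost without lean WT library 1, lean WT library 3, 16-week WT library 1 or 16-week WT library 3. For 4 weeks against lean diet in KO cells edgeR called 0 of the 24, with 0% of all genes called. There 23 of the 24 changes were negative and 1 positive, beside 49.4% positive of all genes, with a median of -0.43. An unadjusted p below 0.05 was found for 12, beside 836 of 11698 genes, and DESeq2 called 5, and 22 of all genes. In WT cells at 4 weeks both tools called 0 of the 24, with a median of -0.18. In 16-week against 4-week KO cells, 7 of the 24 fell and 0 rose, Fosb most firmly (log2 -1.75 ± 0.23, adjusted p = 0.000701). Leaving out single libraries gave 13 to 16 called genes for 16-week against lean KO cells and 1 to 8 for 16 against 4 weeks, where 16-week KO library 1 gave up Fos, Zfp36, Gadd45b, Dusp5, Atf3 and Btg2. In the interaction at 16 weeks edgeR called 0 of the 24, with Fos at -1.71 ± 0.32 (adjusted p = 0.123), 15 at an unadjusted p below 0.05 and 5 called by DESeq2, so whether the genotypes differ here depends on the tool. Over all genes, 993 of 11698 had an unadjusted p below 0.05 and DESeq2 called 27.

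Later genes of the TCR response split. Of 18 listed, 5 fell and 4 rose in 16-week against lean KO cells, with a median of -0.20. Those that fell included Cd69, an early activation and retention marker (log2 -1.69 ± 0.17, adjusted p = 5.15e-06), Irf4, a factor of effector Tregs (-1.34 ± 0.21, adjusted p = 0.000659), and Il2ra, the IL-2 receptor alpha chain (-1.13 ± 0.18, adjusted p = 0.000664). Nfkbia, the NF-kB inhibitor, fell by 0.96 ± 0.16 (adjusted p = 0.00137) and Nfkbid by 0.85 ± 0.20 (adjusted p = 0.0123). Those that rose were Icos, a costimulatory receptor (log2 0.87 ± 0.16, adjusted p = 0.00253), Bhlhe40, a transcription repressor (1.52 ± 0.29, adjusted p = 0.00289), Tnfrsf9, which encodes 4-1BB (1.15 ± 0.26, adjusted p = 0.00981), and Cd83 (2.24 ± 0.56, adjusted p = 0.0195). Tnfrsf9 lost its call without 16-week KO library 1, and Nfkbid and Cd83 lost theirs in 3 and 4 of the 6 fits without a library. In WT cells 1 rose, Tnfrsf9 (log2 1.48 ± 0.26, adjusted p = 0.0213), and 0 fell, and that call was lost in 4 of 6 such fits. Against 4 weeks, 5 of the 18 fell in KO cells, Cd69 among them (-0.91 ± 0.16, adjusted p = 0.00683), and 1 rose, Bhlhe40 (1.20 ± 0.28, adjusted p = 0.0316), with 0 to 5 called when single libraries were left out.

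The list of partners and reported T cell targets of EGR and NR4A factors had 17 of 18 genes tested, since Egr4 was at a mean of at most 0.735 CPM in every group. In 16-week against lean KO cells 4 rose and 2 fell, with a median of 0.25. Nrp1, neuropilin-1, rose by 1.09 ± 0.18 (adjusted p = 0.00124), Izumo1r, which encodes folate receptor 4, by 1.22 ± 0.26 (adjusted p = 0.00721), Tox, a nuclear factor of chronically stimulated T cells, by 0.68 ± 0.15 (adjusted p = 0.00856), and Cblb, a ubiquitin ligase that restrains TCR signalling, by 0.66 ± 0.19 (adjusted p = 0.0401), on the log2 scale. Cdkn1a, the cell cycle inhibitor p21, fell by 1.42 ± 0.20 (adjusted p = 0.000178) and Tox2 by 1.36 ± 0.36 (adjusted p = 0.0292). Cblb lost its call whichever of the 6 libraries was left out, Tox2 in 5 of 6 fits and Tox without 16-week KO library 1. In WT cells Pdcd1, which encodes PD-1, rose by 1.27 ± 0.20 (adjusted p = 0.00881), a call lost without lean WT library 3 or 16-week WT library 3. Nab1, the sister corepressor of Nab2, was at 34.7 ± 10.3 CPM in 16-week KO cells and 20.3 ± 4.69 CPM in lean KO cells and was not called (adjusted p = 0.143).

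Upstream regulators of EGR and NR4A transcription did not pass the test. Of 23 listed, 21 were tested, and edgeR called 0 in 16-week against lean KO cells, with a median change of 0.00. An unadjusted p below 0.05 was found for 5, beside 2323 of 11698 genes, and DESeq2 called 0. Crem, a cAMP-responsive factor, was at log2 0.45 ± 0.15 (adjusted p = 0.0886) and Ppp3ca, a calcineurin catalytic subunit, at -0.76 ± 0.25 (adjusted p = 0.077). In WT cells edgeR called 0 and DESeq2 1, with 4 at an unadjusted p below 0.05, beside 1025 of 11698 genes. Crem was at 0.55 ± 0.15 (adjusted p = 0.192) and Srf, serum response factor, at -1.35 ± 0.41 (adjusted p = 0.248). In KO against WT cells, none of the early response, later TCR, upstream, partner and target or heat shock lists held a gene called by edgeR on any diet. On lean diet 12 of the 24 early response genes had an unadjusted p below 0.05 and DESeq2 called 2, and at 16 weeks 12 did and DESeq2 called 0. Of all 11698 genes, 839 on lean diet and 1070 at 16 weeks had an unadjusted p below 0.05. On lean diet, Jun was nearest to the threshold among early response genes (log2 1.05 ± 0.23, adjusted p = 0.159), Cd69 among later genes (0.69 ± 0.16, adjusted p = 0.184) and Cdkn1a among partners and targets (0.91 ± 0.19, adjusted p = 0.14). After transfer 1 gene of these 5 lists was called in KO against WT cells, the antiproliferative gene Btg2, which fell by 1.37 ± 0.14 (adjusted p = 0.00462), to 1916 ± 417 CPM in KO cells against 4899.5 ± 549 CPM in WT cells (SD, n = 2 each).

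**Figure D4:**
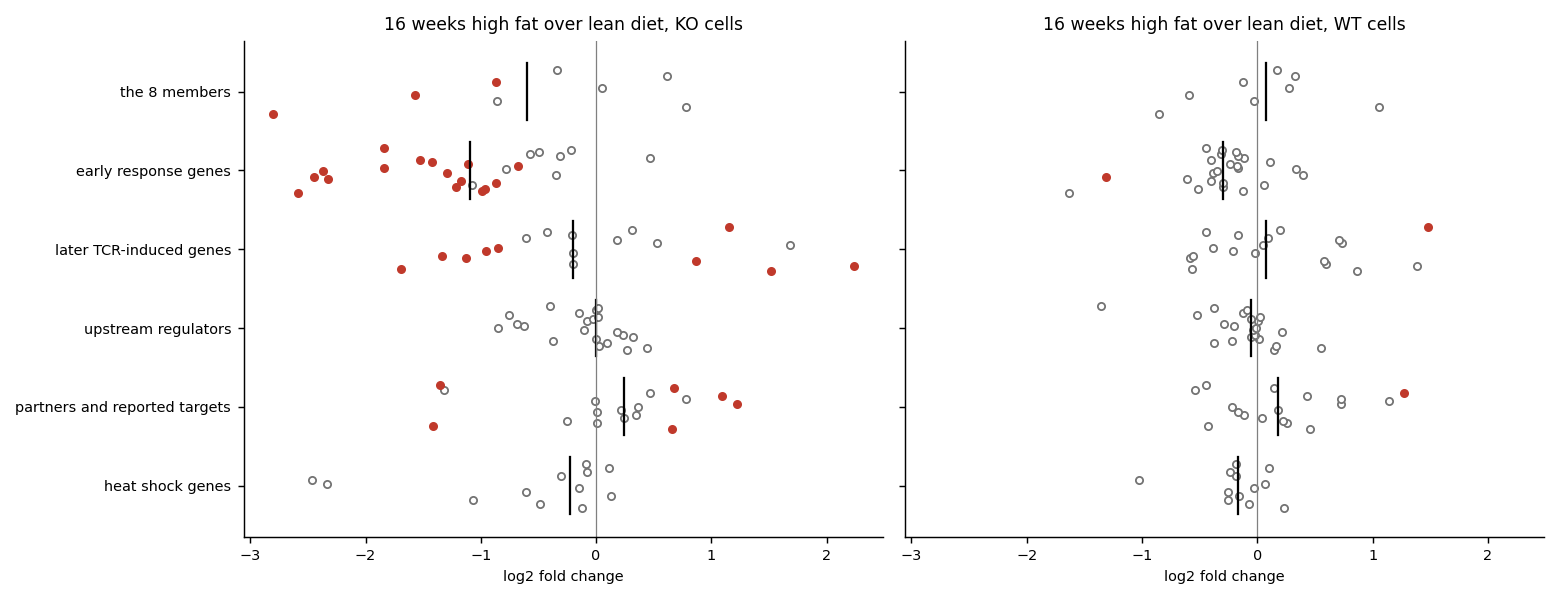
Log2 fold changes (horizontal axes) of each gene of the 8 members and 5 lists for 16 weeks of high fat diet over lean diet, in KO cells (left) and WT cells (right); filled red points passed an adjusted p of 0.05 over all genes, open points did not, and black bars are medians. In KO cells 16 of 24 early response genes are filled, all below 0, and their median is -1.09, against 1 of 24 and -0.30 in WT cells.

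Genes that tissue handling induces, and markers of other cells, are given beside these values. Summed heat shock genes (13 listed) were 5327 to 5475 CPM in 16-week KO libraries and 5678 to 8852 CPM in lean KO libraries, where library 1 stood apart at 8852 CPM and the others were at 5678 and 5828 CPM. In WT cells they were 4302 to 6258 CPM at 16 weeks and 5794 to 5945 CPM on lean diet. In 16-week against lean KO cells edgeR called 0 of the 12 tested heat shock genes and DESeq2 1. An unadjusted p below 0.05 was found for 5 of them, beside 2323 of 11698 genes. Dnajb1 was at log2 -1.07 ± 0.32 (edgeR adjusted p = 0.0557). The sum of the 24 early response genes was 14631 ± 1371 CPM in 16-week KO cells and 32160.2 ± 1532 CPM in lean KO cells, and 18554 ± 1389 CPM in 16-week WT cells and 22494 ± 5222 CPM in lean WT cells. At 4 weeks it was 22520 ± 2173 CPM in KO cells and 20497 ± 1228 CPM in WT cells. After transfer this sum was 40142 ± 5054 CPM in KO cells and 42170 ± 6192 CPM in WT cells (SD, n = 2 each). Heat shock genes summed to 6130 to 7266 CPM in transferred KO libraries and 6596 to 8004 CPM in transferred WT libraries. The part of handling in these levels was not tested.

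The summed markers of adipose Tregs (Pparg, Il1rl1, Klrg1, Gata3, Ccr2, Il10 and Areg) were lower in the older 16-week KO libraries than in the lean KO libraries. They were 2359 to 3039 CPM after 16 weeks and 6101 to 6800.4 CPM on lean diet. The 4-week KO libraries, at 5743 to 6340 CPM, overlapped the lean KO libraries. In WT cells these markers summed to 2692 to 6091 CPM at 16 weeks, 3951 to 5490 CPM at 4 weeks and 3516 to 6542 CPM on lean diet. General Treg and T cell markers were 3934 to 4059 CPM in 16-week KO cells and 3869 to 4572 CPM in lean KO cells. Endothelial markers summed to 118 to 202 CPM in 16-week KO libraries and 39.4 to 76.6 CPM in lean KO libraries, mostly Pecam1, with Cdh5 at a mean of 1.69 CPM in 16-week KO cells and at 0 in all lean KO libraries. Stromal markers reached 128 CPM in 16-week KO library 1, against 4.25 to 7.81 CPM in lean KO libraries, and adipocyte markers 10.1 to 53.3 CPM against 2.13 to 4.03 CPM. Class II and dendritic cell markers were 109.8 to 178 CPM in 16-week KO libraries and 51.1 to 138 CPM in lean KO libraries, and cytotoxic markers 148 to 168 CPM and 245 to 369 CPM in the same order. Endothelial markers were 50.4 to 161 CPM in 16-week WT libraries and 61.9 to 77.7 CPM in lean WT libraries. Cytotoxic markers were 183 to 746 CPM and 252 to 471 CPM in these WT groups, and class II and dendritic cell markers 63.7 to 126 CPM and 69.3 to 95.3 CPM. Stromal and adipocyte markers each summed to at most 11.3 CPM in these WT libraries. B cell, macrophage, mesothelial and red blood cell markers each summed to at most 30.6 CPM in any library. The highest stromal, adipocyte and endothelial sums were all in 16-week KO library 1. The part of such cells in the levels of the 8 genes was not tested.

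Across the 18 diet libraries, on log2 CPM, Egr1 varied with Nr4a1 (Pearson r = 0.86, Spearman rho = 0.84) and with Ier2 (r = 0.86, rho = 0.89), and Nr4a1 with Nr4a3 (r = 0.78, rho = 0.81). Without the 2 libraries farthest from the median on Egr1 those with Egr1 were 0.83 and 0.81. Egr1 and Egr2 had r = -0.32 over the 18 libraries and r = 0.61 once each group's mean was taken out, so the opposite course lay between groups and not between libraries of a group. Ier2 and Nr4a2 had the lowest value of the 28 pairs, r = -0.50, and the median pair was at 0.19, with 19 positive. These libraries share groups and depth, so the values are a description.

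By a fixed rule, the genes outside the 8 with the pattern most like the mean of the 8, over the 18 diet libraries, were Map3k8, a kinase of the ERK and NF-kB pathways (r = 0.82), Nfkbiz (0.79), Samsn1 (0.78), Nfkbia (0.78), Actg1 (0.78) and Btg2 (0.76). The least alike were Zfp319 (-0.81), Rbm3os (-0.76) and Smg9 (-0.75). Egr1 lay nearest to Cd69 and Lmna (both 0.95), Nr4a1 to Nfkbia (0.95) and Nfkbiz (0.92), and Ier2 to Nfkbid (0.95) and Card19 (0.92). Egr2 lay nearest to Cops6 (0.84) and Setbp1 (0.82), Egr3 to Polr1c (0.84) and Ppa1 (0.82), and Nab2 to Tnip2 (0.71) and Glis3 (0.69). Nr4a2 lay nearest to Cmpk2 (0.80) and Rel (0.77), and Nr4a3 to Arl5b (0.83) and Kdm6b (0.80). Without the 2 libraries farthest from the median these values were 0.57 to 0.94 for the positive ones and -0.82 to -0.66 for the negative ones. The nearest genes of Egr2 and Nr4a2 were thus not those of Egr1 and Nr4a1.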

How the data were processed

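The data were raw counts of reads per gene for 22 libraries, deposited by the authors as whole numbers with no normalization. Per the submitters' processing notes the tools were STAR 2.7.3a and featureCounts on mm10, and per the labels' protocols cDNA was made with oligo(dT) and Nextera XT and sequenced in read pairs of 38 bases. The strand setting and the annotation were each not given in sources used here. The 8 genes, the gene lists and the tests were chosen with earlier results of these data known.

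Genes were tested with the edgeR 4.0.16 quasi-likelihood fit in R 4.3.3, on TMM-scaled counts after filterByExpr with a minimum count of 10, and Benjamini-Hochberg adjustment over all genes tested. The 18 diet libraries shared 1 fit with a term per group and no block, and the 4 transfer libraries had their own. CPM levels used TMM over the 22 libraries, and per-kilobase values the exon union of GENCODE M21. A count of 0 allows a level of up to 3 counts, which is 0.542 to 1.60 CPM depending on the library and covers counting error only. Pearson correlations used log2 CPM with a prior count of 2. No libraries of a group agreed within sampling noise (chi-square per degree of freedom 4.22 to 11.98). The procedure was tested on simulated data. The rule named up to 6 called genes per list and comparison by smallest p, or the smallest p in each direction where none was called, and the genes nearest in pattern; only some of these are printed. Nfkbid, Tnfrsf9 and Cd83 (later TCR genes), the remaining called genes of 16 against 4 weeks, Nab1 and Egr4 were named beyond it after their values were seen. DESeq2 1.42.0, other size factors, no filter, a replicate block, other sets of samples in the fit, and leaving out each library were the alternatives.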

Additional observations from a re-analysis of the deposited data

Results flagged for a closer look

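The Egr1 difference between 16 weeks of high fat diet and lean diet differed in KO and WT cells by -1.95 on the log2 scale. It drew notice because every KO library lay above every WT library on lean diet, and every KO library lay below every WT library after 16 weeks. edgeR did not call this interaction and DESeq2 did. Egr1 was among the genes chosen with these levels known, so the value and the order of the libraries are a description.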

How the results depend on the processing

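No fold of the 8 genes that was called changed direction under any alternative tried, and 1417 of the alternative fold values stayed within the spread between libraries while 7 moved. Without the low-count filter edgeR called more of the 8 genes, and the cause was not tested: in KO against WT cells 2 on lean diet, 1 at 4 weeks, 2 at 16 weeks, 1 over the average and 2 after transfer; for 4 weeks against lean 1 in KO cells and 1 in WT cells; for 16 weeks against lean 5 in KO cells and 3 in WT cells; for 16 against 4 weeks 4 in KO cells and 3 in WT cells; and in the interactions 3 at 16 weeks and 1 at 4 weeks. Without the filter edgeR called 22 to 1085 of all genes by comparison, out of 41746 across the diets and 29278 after transfer. In KO against WT cells these were 135 on lean diet, 75 at 4 weeks, 428 at 16 weeks, 273 over the average and 102 after transfer. For 4 weeks against lean they were 112 in KO and 40 in WT cells, and for 16 weeks against lean 1085 and 178. For 16 against 4 weeks they were 638 in KO and 96 in WT cells, and in the interactions 258 at 16 weeks and 22 at 4 weeks. DESeq2 called 1 on lean diet, 1 in the 16-week interaction, 1 after transfer, 3 for 16 weeks against lean in KO cells and 3 for 16 against 4 weeks in KO cells, and 0 in the other comparisons. Leaving out single libraries gave 0 to 1 on lean diet, 0 to 1 in the 16-week interaction, 2 to 3 for 16 weeks against lean in KO cells and 1 to 4 for 16 against 4 weeks in KO cells. Over all genes these fits called 4 to 11 on lean diet and 0 to 36 in the 16-week interaction. Same-numbered libraries did not deviate together (r -0.14 to 0.14 in the diet groups), and the fit with the replicate block called 3 genes for 16 weeks against lean in KO cells and 2 for 16 against 4 weeks, the same counts as without it, and 0 elsewhere. Over all genes, 16 weeks against lean in KO cells gave 696 calls, 373 to 514 with a library left out and 1085 without the filter. For 16 against 4 weeks in KO cells there were 192 calls, 32 to 175 with a library left out. Egr3 had the fewest counts of the 8 genes.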
